A study of Mus musculus with 10 samples.

Results

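The genes described are 7 patterning factors of the pharyngeal pouches and the thymus, namely Foxn1, Pax1, Pax9, Eya1, Six4, Tbx1 and Trp63. They were chosen by name, for their role in making the thymus and with earlier results of these data known, and make up 7 of 43432 gene identifiers in the count files. All 7 were found there, and 6 of them passed the filter on low counts that left 19281 genes for testing. Tbx1 was the exception.

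RNA-seq was performed on tuft cells, a rare chemosensory epithelial cell type, sorted from the thymus and from the small intestine (SI), with other SI epithelial cells alongside. The thymic tuft group (n = 4 libraries) held DAPI-, CD45-, EPCAM+, Flare25+ cells of the thymus. The SI tuft group (n = 3) held cells of the same gate from the small intestine, and the SI epithelium group (n = 3) held DAPI-, CD45-, EPCAM+, Flare25- cells from that organ. All mice were naive males of 12 weeks on the strain labelled C57BL6.Il25(Flare25/Flare25), in which both copies of the cytokine gene Il25 carry a fluorescent reporter, so the controls carry it too. Each library came from 1 mouse. Of 4 samples sorted per population, the authors discarded 1 of SI tuft cells and 1 of SI epithelium for quality, per the labels. A library was made from 1350 to 1900 cells in the thymic tuft group, 35000 to 36000 in the SI tuft group and 52000 to 57000 in the SI epithelium group. The Flare25 gate picks cells by Il25 expression and not by a thymic marker, and no other thymic epithelial cells are analysed here.

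The thymus forms from endoderm of a pharyngeal pouch, an outpocketing of the embryonic throat lining. There Eya1, a phosphatase and coactivator, works with homeodomain factors of the sine oculis family, to which Six4 belongs, and with the paired-box factors Pax1 and Pax9 to set up the organ bud, while Tbx1, a T-box factor, acts earlier in the formation of the pouches. Foxn1, a forkhead factor whose loss gives the nude mouse, then drives the thymic epithelial program, and Trp63 encodes p63, which maintains basal epithelial cells in skin and in thymus.

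Promoter sequence is shown for 4 of the 7 genes because their transcripts were all found in thymic tuft cells and almost absent from SI tuft cells, and shared motifs could be looked for at their starts. The windows come from RefSeq on GRCm38.p6 and run from 250 bases before to 50 after a start site, 5′ to 3′ along the gene. Of the 7 genes 5 had a window and 2, Eya1 and Trp63, had none. The search took 4 motifs on both strands: ATGCAAA, the octamer-type core bound by POU factors such as the tuft cell regulator Pou2f3; GACGC, the core bound by Foxn1; AGGTGT, a T-box core; and TCAGGTT, a site bound by sine oculis factors such as Six4. Capitals mark the matches.
Foxn1 (chr11:78386559-78386858, minus strand): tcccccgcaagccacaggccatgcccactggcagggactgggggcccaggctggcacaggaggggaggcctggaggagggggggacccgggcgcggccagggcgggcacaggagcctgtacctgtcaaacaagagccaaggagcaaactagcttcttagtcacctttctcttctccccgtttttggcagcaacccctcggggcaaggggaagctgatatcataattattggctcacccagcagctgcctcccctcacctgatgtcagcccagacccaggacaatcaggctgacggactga
Pax1 (chr2:147364744-147365043, plus strand): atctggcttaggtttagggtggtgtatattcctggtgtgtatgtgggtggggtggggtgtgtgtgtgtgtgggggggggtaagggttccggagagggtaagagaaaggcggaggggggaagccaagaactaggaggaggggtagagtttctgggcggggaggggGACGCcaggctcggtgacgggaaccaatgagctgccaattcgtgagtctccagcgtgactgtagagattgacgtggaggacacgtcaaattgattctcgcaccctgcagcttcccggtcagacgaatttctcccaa
Pax9 (chr12:56695221-56695520, plus strand): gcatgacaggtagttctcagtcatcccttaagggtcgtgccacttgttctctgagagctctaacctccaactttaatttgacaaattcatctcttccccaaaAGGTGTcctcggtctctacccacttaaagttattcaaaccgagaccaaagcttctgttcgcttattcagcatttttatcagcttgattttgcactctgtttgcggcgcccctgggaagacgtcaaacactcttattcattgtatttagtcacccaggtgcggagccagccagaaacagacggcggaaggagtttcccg
Six4 (chr12:73113196-73113495, minus strand, the first of 2 windows): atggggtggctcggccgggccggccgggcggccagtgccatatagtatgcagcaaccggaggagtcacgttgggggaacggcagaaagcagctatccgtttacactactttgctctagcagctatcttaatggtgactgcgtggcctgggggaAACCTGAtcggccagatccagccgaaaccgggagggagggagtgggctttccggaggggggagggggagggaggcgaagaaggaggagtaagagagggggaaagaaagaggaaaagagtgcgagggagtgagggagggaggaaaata

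Pax1 held 1 Foxn1 core, 86 bases before the start, and Pax9 held 1 T-box core, 148 bases before it. Six4 held 1 sine oculis site on the opposite strand, 97 bases before the start, where it reads AACCTGA. Tbx1, near 0 in all groups, held 2 Foxn1 cores in its first window, 31 bases after the start and 11 before it, and 1 T-box core in its second, 76 bases before the start. The Foxn1 window held none of the 4 motifs, and the octamer core was in none of the windows of the 5 genes. Among 32851 windows of the same length, the Foxn1 core was in 27.2%, the T-box core in 13.7%, the octamer core in 4.63% and the sine oculis site in 4.07%. The 50 bases after the start lie wholly in a GENCODE M21 transcript of the same gene for the Pax1, Pax9 and Six4 windows shown. They do not for the Foxn1 window, whose RefSeq start lies outside the GENCODE gene, nor for either Tbx1 window. A match describes only letters in a window.

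Total gene counts ran from 38659882 to 73574745 per library, with 18889 to 23179 genes detected by at least 1 count. Levels are given as CPM, counts divided by the total of the library and set to a common size, after scaling by trimmed mean of M-values (TMM), on which 3 counts in a library were worth 0.0433 to 0.0817 CPM. Mitochondrial genes took 4.38% to 5.97% of counts in thymic tuft libraries, 24.1% to 33.5% in SI tuft libraries and 18.6% to 23.7% in SI epithelium libraries. The labelled cell type held for both tuft groups: all 20 of 20 listed tuft markers were higher than in SI epithelium by edgeR's quasi-likelihood test. Of all genes tested, 28.6% were called higher than in SI epithelium in thymic tuft cells and 10.9% in SI tuft cells. The list includes Il25, on whose reporter the cells were sorted, so its call was fixed in advance and gives no support to the label. Pou2f3 averaged 492 ± 31.5 CPM in thymic tuft cells (SD, n = 4), 694 ± 104 CPM in SI tuft cells (n = 3) and 13.0 ± 1.94 CPM in SI epithelium (n = 3). Between the tuft groups, 15 of the 20 tuft markers were lower in thymic tuft cells, 1 was higher and 4 were not called, with a median log2 change of -1.38. Their summed level was 8930 to 10353 CPM in thymic tuft libraries and 27791 to 37573 CPM in SI tuft libraries. Gnat3 was higher in thymic tuft cells (586 against 38.8 CPM) and Sh2d6 (1330.3 against 14043 CPM), Hmx2 (6.84 against 71.2 CPM) and Ltc4s (26.0 against 145 CPM) were lower. A fit to the thymic libraries gave each SI epithelium library its largest share, a small one, for 1 thymic tuft library, called its partner below. Such a share and transcripts of the SI epithelial cells themselves cannot be told apart in these files. The values that touch the patterning factors are given beside the comparison with SI epithelium. Organ, dissociation method and number of sorted cells differed together between thymus and intestine, so their parts in any difference cannot be told apart.

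The first comparison asked whether tuft cells of the thymus carry the patterning factors of their organ when set against tuft cells of the intestine. All 6 of the 6 patterning factors tested were higher in thymic tuft cells, by 389.6- to 19438-fold in level, and Tbx1 was near the limit of detection in both groups. By edgeR's quasi-likelihood test at an adjusted p below 0.05, 28.5% of all 19281 genes tested were called higher in the same comparison and 23.1% lower. The median log2 fold change was 9.67 over the 6 factors and 0.12 over all genes tested. In bulk samples such as these, fewer cells of a type and less RNA per cell cannot be told apart.

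**Figure D1:**
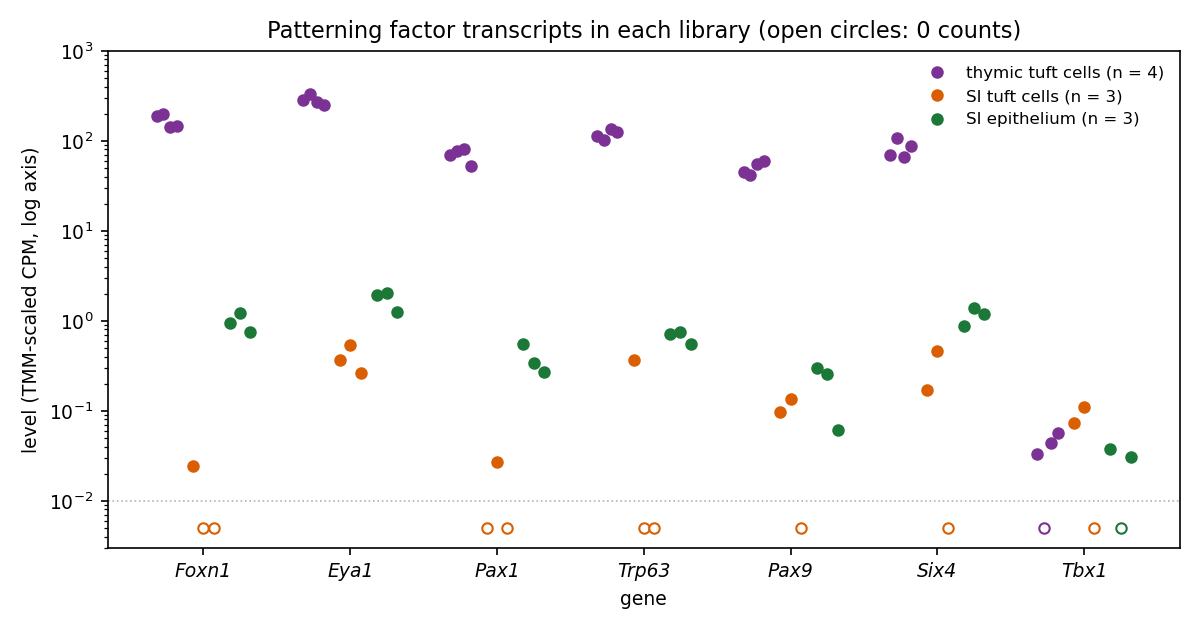
TMM-scaled CPM (log axis) of the 7 patterning factors in each library, with 1 point per library, thymic tuft cells left, SI tuft cells centre and SI epithelium right of each gene; open circles below the dotted line mark 0 counts. The thymic tuft points of 6 genes lie between 42.0 and 331 CPM, above all other points, while the Tbx1 points of all groups lie at or below 0.109 CPM.

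Foxn1, the master factor of thymic epithelium (chr11:78357577-78386558, minus strand, GRCm38), stood at 189, 200.4, 141 and 146 CPM in the 4 thymic tuft libraries. It stood at 0.0243, 0 and 0 CPM in the 3 SI tuft libraries. All 4 thymic libraries were high and the SI tuft libraries held 1 count in all, so the groups did not overlap. The summed counts were 39570 in thymic tuft cells and 1 in SI tuft cells, a ratio of 19438 with a 95% counting interval of 3489 to 767798. The fitted log2 fold change was 13.90 ± 0.48 (SE), with an adjusted p of 2.73e-09 by edgeR. Counting intervals cover counting error only, since amplified reads are not independent molecules.

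Pax1, a paired-box factor of pouch endoderm (chr2:147361925-147393295, plus strand), stood at 69.6, 77.9, 80.2 and 52.2 CPM in thymic tuft libraries. It stood at 0, 0.0272 and 0 CPM in SI tuft libraries. Thymic library 4 was the lowest of its group, and the groups did not overlap. The ratio was 8185 with a counting interval of 1469 to 323313, again against 1 count in SI tuft cells, and the log2 fold change was 12.63 ± 0.60 (adjusted p = 1.72e-08, edgeR). Exons of Pax1 overlap those of AI646519, an antisense gene that had at most 20 counts in a thymic tuft library and 0 in all others, and the library kit does not mark strand.

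Pax9, the closest relative of Pax1 and needed with it for pouch growth (chr12:56691767-56712822, plus strand), stood at 45.4, 42.0, 55.8 and 58.8 CPM in thymic tuft libraries. It stood at 0.0972, 0.136 and 0 CPM in SI tuft libraries. The ratio was 652 with a counting interval of 343 to 1426, and the log2 fold change was 9.30 ± 0.73 (adjusted p = 7.08e-07, edgeR). The order of the 4 thymic libraries differed from that of Pax1, with library 4 the highest for Pax9 and the lowest for Pax1. Exons of Pax9 overlap those of Slc25a21 on the other strand, a gene with at most 62 counts in a thymic tuft library and at most 47 in an SI tuft library.

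Eya1, the coactivator without which the mouse makes no thymus (chr1:14168954-14310235, minus strand), stood at 284, 331, 273 and 250.5 CPM in thymic tuft libraries and at 0.364, 0.544 and 0.264 CPM in SI tuft libraries. It was the only one of the 7 with a count in every library of every group. The ratio was 730.3 with a counting interval of 546 to 1001, and the log2 fold change was 9.50 ± 0.33 (adjusted p = 2.73e-09, edgeR).

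Six4, a homeodomain factor that works with Eya proteins (chr12:73099609-73113456, minus strand), stood at 69.8, 108, 65.2 and 86.8 CPM in thymic tuft libraries. It stood at 0.170, 0.463 and 0 CPM in SI tuft libraries. Library 2 was the highest in the thymic group, in which Six4 had the largest relative spread of the 6 tested factors, a coefficient of variation of 23.3% against 11.6% for Trp63. The ratio of 389.6 (counting interval 262 to 608) was the smallest of the 6, with a log2 fold change of 8.61 ± 0.70 (adjusted p = 1.01e-06, edgeR).

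Trp63, which encodes p63 (chr16:25683763-25892102, plus strand), stood at 113, 102, 134 and 124 CPM in thymic tuft libraries. It stood at 0.364, 0 and 0 CPM in SI tuft libraries. All 15 counts of the SI tuft group came from 1 library, replicate 2. The ratio was 920.0 with a counting interval of 558 to 1644, and the log2 fold change was 9.83 ± 0.76 (adjusted p = 6.27e-07, edgeR); without that library the log2 fold change was 15.61, against a group with 0 counts and so dependent on the fit's prior.

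Tbx1, the T-box factor of early pouch formation (chr16:18580979-18590671, minus strand), had 2, 0, 3 and 3 counts in thymic tuft libraries. It had 3, 4 and 0 counts in SI tuft libraries and 2, 0 and 2 counts in SI epithelium libraries. The 3 groups overlapped, and no library went above 0.109 CPM. The ratio of thymic to SI tuft levels was 0.561 with a counting interval of 0.178 to 1.82. Without the filter on low counts the log2 fold change was -0.80 (adjusted p = 0.767, edgeR), so a difference was not detectable at this depth.

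The direction and the call of the 6 tested factors in this comparison held for each gene under the 16 alternative settings that left the SI epithelium counts as deposited.

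Levels of different genes can be compared only per length, and on that scale the 6 detected factors ran from 52.6 down to 7.59 CPM per kilobase of exon in thymic tuft cells. Foxn1 was highest at 52.6 ± 9.34 CPM per kb (SD, n = 4), a level above that of 97.0% of the protein-coding genes tested. Eya1 followed at 36.5 ± 4.36 CPM per kb, above 95.2% of genes. The 4 libraries of Foxn1 (43.8 to 62.4) and of Eya1 (32.1 to 42.4) did not overlap, so these neighbours in the order differed by more than their spread.

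Pax1 came next at 15.6 ± 2.83 CPM per kb and Trp63 after it at 14.1 ± 1.63 CPM per kb, above 85.7% and 84.1% of genes. Their libraries overlapped (11.6 to 17.9 for Pax1 and 12.2 to 15.9 for Trp63), so their order is within the spread. Pax9 averaged 9.99 ± 1.60 and Six4 7.59 ± 1.77 CPM per kb, above 77.4% and 71.2% of genes, and their libraries overlapped too. Tbx1, at 0.00947 CPM per kb, was above 0.659% of genes. As measures of scale on the same axis, Pou2f3 averaged 159 ± 10.2 CPM per kb in the same libraries and Aire, the regulator of self-antigen expression in the thymic medulla, 58.7 ± 11.8 CPM per kb.

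**Figure D2:**
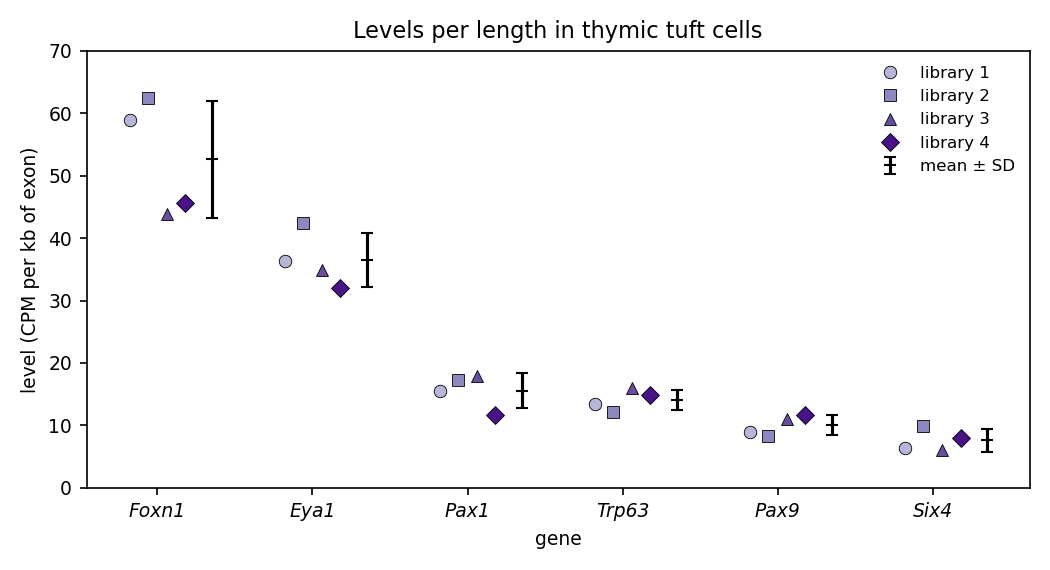
CPM per kilobase of exon of the 6 detected patterning factors in the 4 thymic tuft libraries, with 1 symbol per library and the mean ± SD beside them. Foxn1 (52.6) and Eya1 (36.5) stand apart from the other 4 genes, which average 7.59 to 15.6; the symbols of Pax1 and Trp63, and those of Pax9 and Six4, overlap.

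The 6 factors did not vary in step across the 4 thymic libraries. Foxn1, Eya1 and Six4 were highest in library 2, Pax1 and Trp63 in library 3, and Pax9 in library 4. Over all 10 libraries, the closest pair by root mean square difference of centred log2(CPM + 0.5) was Foxn1 and Eya1 at 0.16, and the farthest was Foxn1 and Pax9 at 0.84. All such values rest on the same 10 libraries in 3 groups and are a description only. With 0.5 CPM added, intestinal levels near 0 differ little, so such values depend in large part on the thymic level.

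The genes whose pattern over the 10 libraries was most like each factor were found by the same measure among 14919 protein-coding genes. For Pax1 the nearest was Cd80, a costimulatory ligand read by T cells, at 0.10, followed by Klk7 and Ldhb. For Foxn1 the nearest were Slco5a1 at 0.17, A630073D07Rik and Serpinb2, and for Eya1 Igf1 at 0.17, Tfap2b and Aox4. Pax9 had Col6a2 at 0.20, Csf2rb2 and Skint4 as its nearest genes. Six4 had Cldn1 at 0.31, Raver2 and Tnfaip2, and Trp63 had Ptprq at 0.23, Icam1 and Vcam1. Of these 18 nearest genes, Pax1's neighbours Cd80 and Klk7 and the genes Serpinb2 and Skint4 had 0 counts in SI tuft cells. Tbx1, near 0 in all libraries, was nearest to genes that were flat over the groups (Setd2, Stx3 and Ubr3).

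The second comparison set thymic tuft cells against SI epithelium, the Flare25- epithelial cells of the intestine. All 6 tested factors were higher in thymic tuft cells, by 69.9- to 263-fold, and 28.6% of all genes tested were called higher by edgeR in this comparison and 22.3% lower. The median log2 fold change was 7.47 over the 6 factors and 0.15 over all genes. The comparison shares its thymic libraries with the first one.

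In SI epithelium Foxn1 stood at 0.941, 1.21 and 0.742 CPM, with a log2 fold change of 7.46 ± 0.32 for thymic tuft over SI epithelium (adjusted p = 7.01e-09, edgeR). Pax1 stood there at 0.546, 0.340 and 0.273 CPM, with a log2 fold change of 7.50 ± 0.42 (adjusted p = 5.42e-08). Pax9 stood at 0.301, 0.255 and 0.0606 CPM, with a log2 fold change of 7.96 ± 0.66 (adjusted p = 1.14e-06). In each case the thymic libraries given above lay far above all 3 SI epithelium libraries.

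Eya1 stood at 1.94, 2.06 and 1.26 CPM in SI epithelium, with a log2 fold change of 7.35 ± 0.29 (adjusted p = 3.82e-09, edgeR). Trp63 stood at 0.715, 0.743 and 0.545 CPM there, with a log2 fold change of 7.47 ± 0.65 (adjusted p = 1.70e-06). Six4 stood at 0.885, 1.40 and 1.20 CPM, and its log2 fold change of 6.15 ± 0.60 (adjusted p = 4.63e-06) was the smallest of the 6. The other 5 fell within a narrow band of 7.35 to 7.96, although their levels in thymic tuft cells ran from 50.5 to 285 CPM.

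The fitted share of partner counts in SI epithelium libraries is given here beside that band. Transcripts of the SI epithelial cells themselves and counts shared with a thymic library cannot be told apart in these files, which holds for every SI epithelium level of the 6 factors and for the third comparison. Over 273 genes that were abundant in thymic tuft cells and almost absent from SI tuft cells, a least squares fit on the 4 thymic libraries, with no negative share, gave SI epithelium library 1 a share of 0.497% of the counts of thymic tuft library 3, library 2 a share of 0.559% of thymic library 2, and library 3 a share of 0.897% of thymic library 1. No other thymic library had a share above 0.206%. With genes over 3 SD from the fit removed, an alternative added after seeing the data, the shares were 0.477%, 0.540% and 0.495%. No other thymic library then had a share above 0.0572%.

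Fitted counts sum the shares of all 4 thymic libraries. Foxn1 had 50, 57 and 49 counts in SI epithelium libraries 1 to 3, where the fit without outlying genes gave 52.98, 58.6 and 59.4. Eya1 had 103, 97 and 83 counts, where it gave 99.8, 97.1 and 90.0. Over the 3 libraries the ratio of observed to fitted counts was 0.912 for Foxn1, 0.986 for Eya1, 0.951 for Trp63 and 0.853 for Pax1. It was 0.679 for Pax9, with 4 counts in library 3 where the fit gave 14.7. Against the fit over all 273 genes the ratios of these 5 factors were lower, at 0.414 to 0.620.

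Six4 differed from the other 5. It had 47, 66 and 79 counts in SI epithelium, where the fit without outlying genes gave 23.9, 31.4 and 22.4, a ratio of 2.47, and the fit over all 273 genes a ratio of 1.53. All 3 SI epithelium libraries were above the given count for Six4 by either fit. Summed over the 3 libraries, the SI epithelium counts were 1.33% of the partner counts for Six4 and 0.362% to 0.527% for the other 5.

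**Figure D3:**
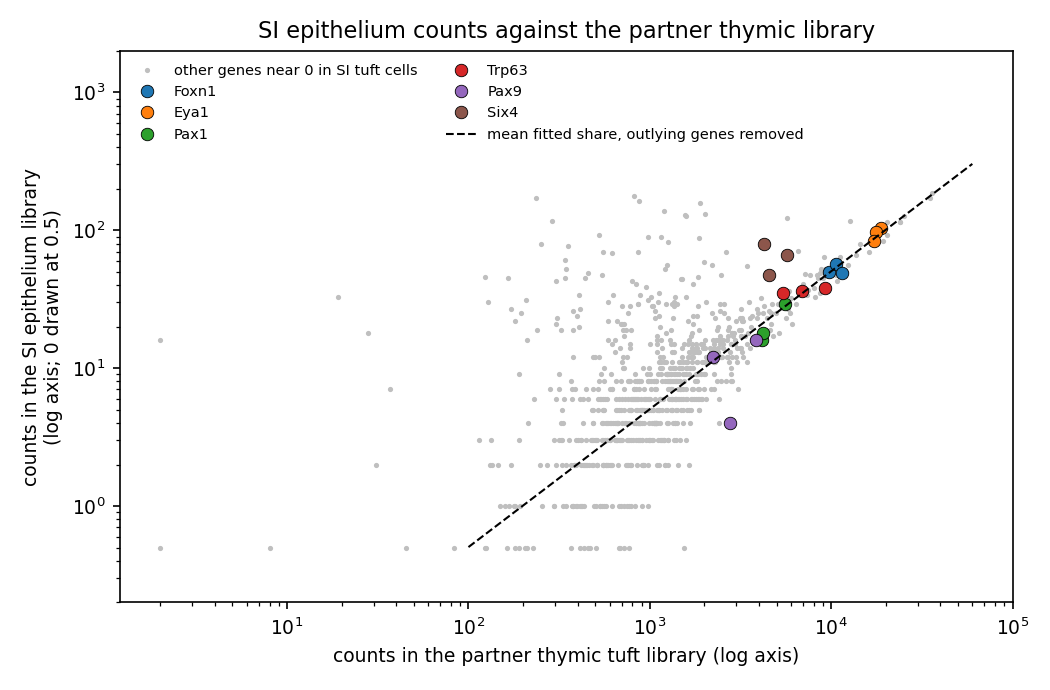
Counts in an SI epithelium library (vertical, log axis, 0 drawn at 0.5) against counts in its partner thymic tuft library (horizontal, log axis), for the 6 detected patterning factors (coloured, 3 points each) and 273 other genes almost absent from SI tuft cells (grey); the dashed line is the mean share fitted with outlying genes removed. Most points of Foxn1, Eya1, Pax1, Trp63 and Pax9 lie near the line, 1 Pax9 point of 4 counts lies below it, and the 3 Six4 points lie above it; the line of the fit over all 273 genes, not drawn, would lie higher.

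Subtracting the fitted counts lowers the SI epithelium side. A share of at most 0.948% of the SI epithelium counts was also taken from thymic libraries 1 to 3. No SI epithelium library held more than 103 counts of any of the 6 factors. The call of the 6 factors in this comparison therefore could not be tested by the subtraction. The fitted log2 fold changes of thymic tuft over SI epithelium then lay between 7.82 and 16.91, or between 6.96 and 16.13 with outlying genes removed. Most SI epithelium counts were 0 after subtraction, so the size of these folds depends on the prior of the fit.

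The third comparison set SI tuft cells against SI epithelium. In the deposited counts 5 of the 6 tested factors were lower in SI tuft cells, and 11.4% of all genes tested were called lower by edgeR and 10.9% higher. The log2 fold change of SI tuft over SI epithelium was -6.44 ± 0.57 for Foxn1 (adjusted p = 6.08e-06), -5.13 ± 0.71 for Pax1 (adjusted p = 0.000241) and -2.15 ± 0.28 for Eya1 (adjusted p = 0.000163). It was -2.46 ± 0.63 for Six4 (adjusted p = 0.0140, edgeR) and -2.36 ± 0.73 for Trp63 (adjusted p = 0.0355). Pax9 was at -1.34 ± 0.74 and was not called (adjusted p = 0.225), and its libraries overlapped.

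These calls were recomputed after the fitted counts were subtracted from the SI epithelium libraries. With either subtraction, none of the 6 was called lower in SI tuft cells by edgeR, and 2, Eya1 and Pax9, were called higher. Eya1 then had 45 counts over the SI tuft libraries and 3 or fewer over the SI epithelium libraries, and Pax9 had 9 and 0. For all tested factors but Six4 the fitted counts over the SI epithelium libraries exceeded those observed, and negative values were set to 0. A lower call could therefore not remain for them, and the 2 higher calls rest on a group set to 0 or near it. The lower call of Trp63 was also lost in 8 of 15 other settings and that of Six4 in 2 of 15, with adjusted p-values over those settings of up to 0.159 for Trp63 and 0.0877 for Six4. In SI tuft cells themselves, the 7 genes had 1 (Foxn1), 1 (Pax1), 7 (Tbx1), 9 (Pax9), 15 (Trp63), 24 (Six4) and 45 (Eya1) counts in 3 libraries.

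The near relatives of the 7 factors were followed next, to see how far each family shared the pattern, from lists drawn up by name. Each count of calls between the tuft groups below stands beside 28.5% of all genes tested called higher in thymic tuft cells and 23.1% lower. Of the 8 tested genes of the sine oculis, Eya and Dach families other than Six4 and Eya1, 6 were higher in thymic than in SI tuft cells, 1 was lower and 1 was not called. Eya2 averaged 185 ± 52.98 CPM in thymic tuft cells, against 0.711 in SI tuft cells, and Eya4 averaged 57.2 ± 21.4 CPM against 0.225.

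Six2 (24.2 CPM in thymic tuft cells, against 0.423 in SI tuft cells), Six5 (4.06 against 0.189) and Dach2 (2.52 against 0.00880) were called higher too. Eya3, the member of its family found in all 3 groups, averaged 49.1 CPM in thymic tuft cells, 43.6 in SI tuft cells and 55.1 in SI epithelium and was not called (adjusted p = 0.469, edgeR). Dach1, which encodes a cofactor of sine oculis and Eya proteins, went the other way, at 0.708 CPM in thymic tuft cells and 10.4 CPM in SI tuft cells (log2 fold change -3.87 ± 0.60, adjusted p = 0.000195).

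Among the other 7 Pax genes, 2 were higher in thymic tuft cells, 1 was lower and 4 were not called, and 2 of 7 is near the 28.5% of all genes tested that were called higher. Pax3 (7.59 ± 2.22 CPM) and Pax7 (2.07 ± 2.03 CPM), which act in neural crest and muscle, had 0 counts in SI tuft cells, so their levels were at least 301- and 76.0-fold higher against a floor of 3 counts over the group. Pax8, a thyroid and kidney factor, averaged 0.307 CPM in thymic tuft cells and 15.1 CPM in SI tuft cells (log2 fold change -5.60 ± 0.67, adjusted p = 2.60e-05, edgeR). Pax2 (2.91 CPM against 1.06), Pax5 (3.78 against 0.317), Pax6 (3.18 against 0.962) and Pax4 (0.329 against 0.389) were not called. Pax6 passed the threshold under both other scalings, with adjusted p-values of 0.0380 and 0.0473 by edgeR. In SI epithelium Pax6 averaged 16.8 CPM and Pax4 6.46 CPM, above their thymic levels. Per length, Pax1 and Pax9 averaged 15.6 and 9.99 CPM per kb in thymic tuft cells, and Pax3 averaged 1.23 CPM per kb.

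Of 9 T-box genes tested besides Tbx1, 6 were higher in thymic tuft cells, 1 was lower and 2 were not called. Tbx15 averaged 27.1 ± 12.8 CPM in thymic tuft cells and had 0 counts in SI tuft cells, a level at least 1022-fold higher. Tbx21, known as T-bet for its role in lymphocytes, averaged 21.4 ± 7.02 CPM against 0.0707 CPM, and Tbr1 averaged 9.47 ± 4.92 CPM against 0.0648. Tbx20 (2.79 CPM), Eomes (2.25 CPM) and Mga (99.2 CPM, against 56.2 in SI tuft cells) were also called higher, while Tbx2 (1.22 against 0.146 CPM) and Tbx6 (1.81 against 0.760 CPM) were not called. Tbx3 was lower in thymic tuft cells, at 14.8 ± 4.49 CPM in thymic tuft cells, 332 ± 34.9 CPM in SI tuft cells and 281 ± 37.4 CPM in SI epithelium (log2 fold change between tuft groups -4.49 ± 0.24, adjusted p = 3.95e-08, edgeR). Tbx5, at 2.26 CPM in thymic tuft cells, did not pass the filter on low counts.

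The p53 and Foxn families each had 1 of 2 tested relatives called higher in thymic tuft cells, Trp73 and Foxn3. Trp53 averaged 99.0 CPM in thymic tuft cells, 76.8 in SI tuft cells and 156 in SI epithelium. Between the tuft groups it was not called (adjusted p = 0.129, edgeR), though both other scalings called it higher with log2 fold changes of 0.61 and 0.49. Trp73 averaged 1.37 CPM in thymic tuft cells, against a single count in SI tuft cells, a ratio of 165 with a counting interval of 29.4 to 6539 (adjusted p = 0.0343, edgeR). Foxn3 averaged 70.4 CPM against 17.7 (log2 fold change 1.99 ± 0.20, adjusted p = 6.11e-06), and Foxn2 17.0 against 9.66 CPM and was not called, although both other scalings called it higher (adjusted p = 0.0208 and 0.0359).

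**Figure D4:**
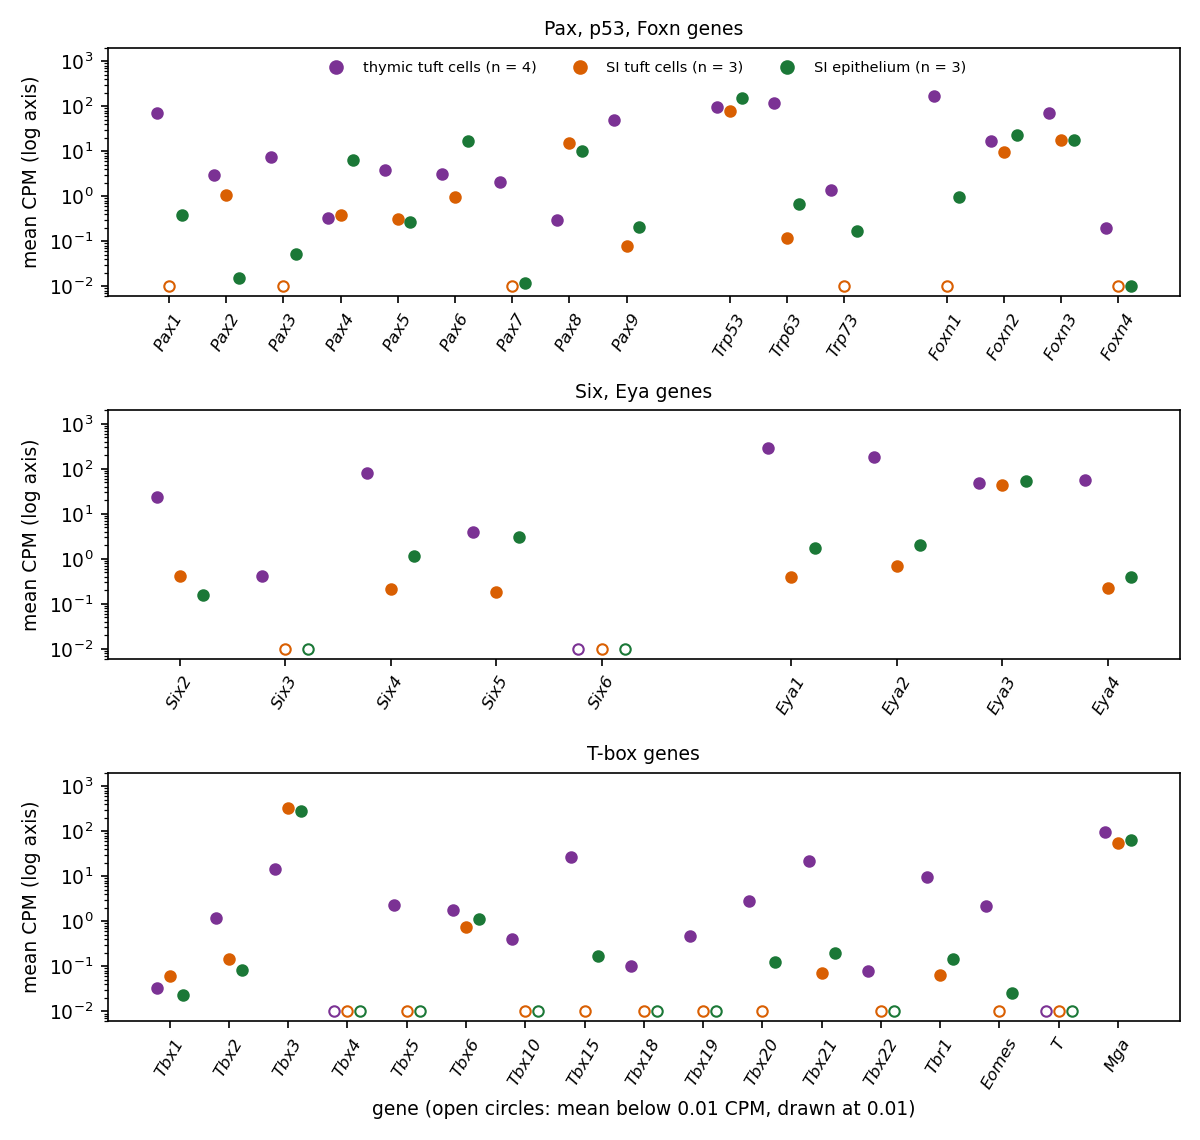
Mean CPM (log axis) of the Pax, p53, Foxn, sine oculis, Eya and T-box genes in thymic tuft cells (left of each gene), SI tuft cells (centre) and SI epithelium (right); open circles mark means below 0.01 CPM. Pax8 and Tbx3 have higher means in both intestinal groups than in thymic tuft cells, Eya3 has close means in all 3 groups, and most other detected family members have their highest mean in thymic tuft cells.

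Beyond these families, the pouch and thymus organogenesis list held 21 genes, and 7 of them did not pass the filter. Of the 14 tested, 9 were higher in thymic than in SI tuft cells, 2 were lower and 3 were not called, and the median log2 fold change was 4.69, against 0.12 over all genes. Fgf10, a growth factor for the thymic bud, averaged 3.63 ± 1.27 CPM in thymic tuft cells, against 0 counts in SI tuft cells, a level at least 136-fold higher.

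Gli3, Wnt4 and Gata3 averaged 10.7, 26.2 and 6.89 CPM in thymic tuft cells, against 0.00810, 1.29 and 0.0971 CPM in SI tuft cells. Hoxa3, the Hox gene on which the mouse thymus depends, was lower in thymic tuft cells, at 3.34 ± 1.27 CPM against 11.6 ± 2.68 CPM (log2 fold change -1.80 ± 0.48, adjusted p = 0.00821, edgeR). Fgfr2, which encodes the receptor for Fgf10, was lower too, at 18.5 against 106 CPM. Nog and Fgf8 had 0 counts in thymic tuft cells.

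Of 10 genes known to depend on Foxn1 in thymic epithelium, 6 were higher in thymic than in SI tuft cells, 3 were lower and 1 was not called, and their median log2 change was 3.73. Those higher were Cd40 (34.6 CPM in thymic tuft cells, at least 1352-fold higher), Cxcl12, Psmb11, Cd83, Prss16 and Ctsl (286 ± 54.2 CPM, against 23.0 ± 1.89 CPM). Psmb11, a proteasome subunit that marks the thymic cortex, was low at 2.40 ± 1.60 CPM. Ccl25, a chemokine made in both organs, was lower in thymic tuft cells at 248 ± 74.8 CPM, against 409 ± 20.5 CPM (log2 fold change -0.72 ± 0.19, adjusted p = 0.00807, edgeR), and Kitl and Fgfr2 were lower as well. Dll4, a Notch ligand for T cell precursors, spread from 1.56 to 44.7 CPM over the thymic libraries and was not called (adjusted p = 0.102).

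Of 20 genes known to depend on p63 in skin, 14 were higher in thymic tuft cells, 3 were lower and 3 were not called. Their median log2 change was 1.46. The lower call of Fgfr3 was lost under DESeq2 size factors (adjusted p = 0.0604, edgeR), and Lamb3 was called higher under both other scalings (0.0302 and 0.0485). The basal keratins led: Krt5 averaged 636 ± 54.8 CPM in thymic tuft cells, against 0.147 ± 0.209 in SI tuft cells (log2 fold change 11.99 ± 0.59, adjusted p = 2.21e-08, edgeR). Krt17 averaged 417 ± 30.7 CPM against 0.135, and Krt14 averaged 78.3 ± 16.3 CPM against 0 counts, at least 2962-fold higher. Zfp750, a regulator of epidermal differentiation, averaged 241 ± 17.9 CPM against 0.525. Genes of the basement membrane anchor were divided, with Col17a1 (36.5 CPM against 0.259) higher, Itgb4 lower (97.1 CPM against 368) and Itga3 not called (195 CPM against 224).

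**Figure D5:**
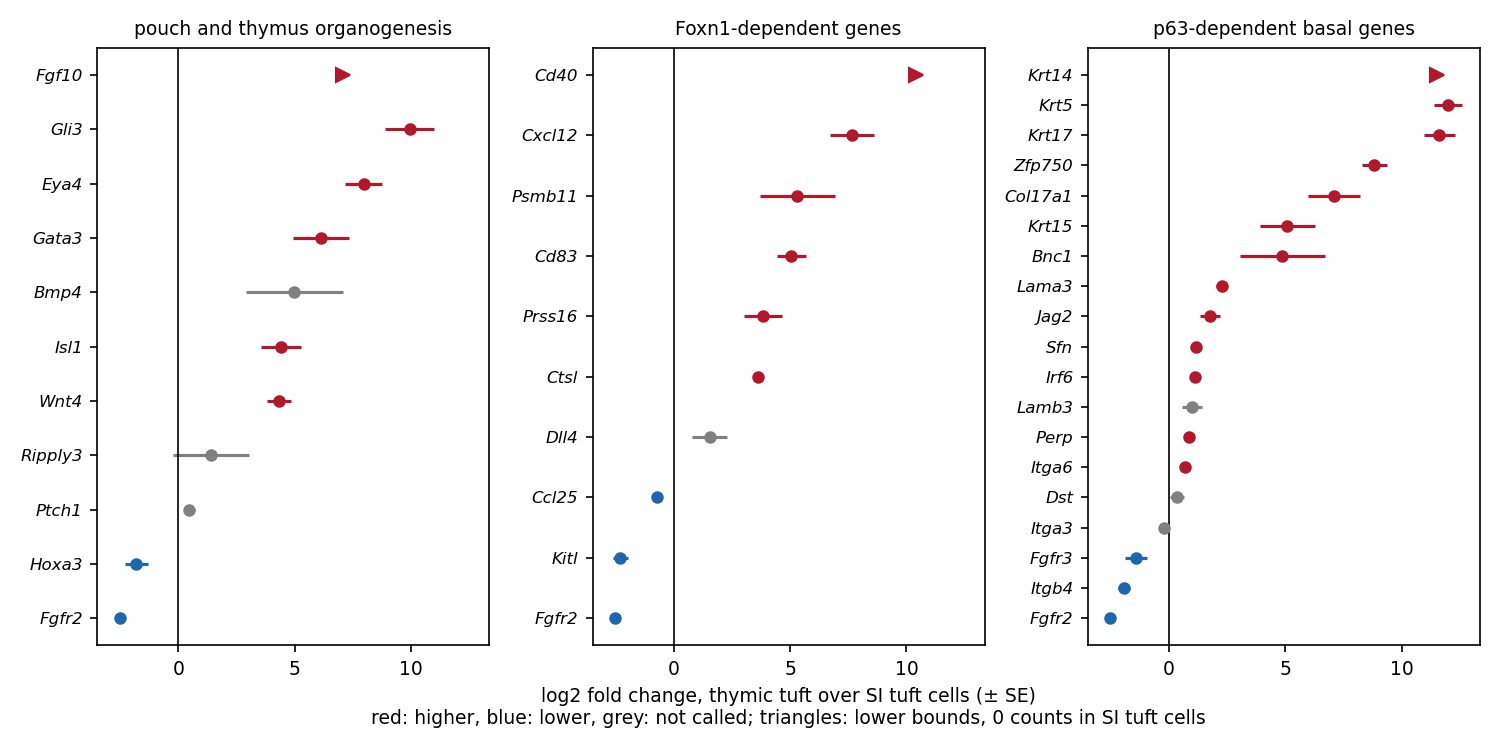
Log2 fold changes of thymic over SI tuft cells (horizontal, ± SE) for tested genes of 3 lists, coloured by call; triangles are lower bounds for genes with 0 counts in SI tuft cells. Most genes lie right of 0, led by Gli3, Cd40, Krt5, Krt17 and Krt14. Of the genes called lower, Fgfr2 lies left of 0 in all 3 panels and Hoxa3, Kitl, Ccl25, Itgb4 and Fgfr3 in 1 panel each.

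Intestinal transcription factors ran opposite to the patterning factors. Of 16 tested, 13 were lower in thymic than in SI tuft cells, 1 was higher and 2 were not called. Their median log2 change was -3.97. The lower call of Foxa3 was lost under DESeq2 size factors (adjusted p = 0.0696, edgeR), and Foxa2 was called higher under both other scalings (0.0325 and 0.0411). The largest decreases were in Gata5 (1.54 CPM against 193), Onecut2 (5.91 against 429) and Isx (0.745 against 50.02), and the increase was in Foxa1 (79.1 against 46.6 CPM).

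Markers of other cells that the thymic gate could hold moved with the patterning factors to different degrees. Of 13 tested genes of medullary thymic epithelium 11 were higher in thymic than in SI tuft cells and 2 were lower, and their median log2 change was 10.48, or 7.59 with genes at 0 set to their bounds. Aire averaged 225 ± 45.2 CPM and Fezf2 285 ± 30.9 CPM in thymic tuft cells, while Ccl21a, which marks other medullary cells, had 5 counts in all. The members with the highest CPM were Epcam (738 CPM in thymic tuft cells, against 1599 CPM in SI tuft cells) and Krt5, Cd80 was at least 2742-fold higher, and Cldn3 was lower (70.4 against 381 CPM). Of 10 cortical genes 6 were higher and 2 lower, with Ctsl and Tbata (269 ± 21.1 CPM) at the highest CPM and Enpep lower (7.18 CPM against 233), and their median log2 change was 3.73. The lists share genes, so their counts are not separate results. Ctsl, Psmb11, Cxcl12 and Ccl25 of the cortical list and Cd40 of the medullary list are also in the Foxn1-dependent list. Krt5 and Krt14 are in both the medullary and the p63 lists. The part of other thymic epithelial cells in the levels of the 6 factors was not tested.

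Of 8 tested fibroblast and endothelial genes 7 were higher, and their summed level was 29.9 to 152 CPM in thymic tuft libraries, 3.77 to 4.68 CPM in SI tuft libraries and 3.71 to 4.47 CPM in SI epithelium libraries, with Dcn (37.0 ± 35.5 CPM) and Pdgfrb (16.9 ± 4.96 CPM) at the highest CPM. Col1a2, Col3a1 and Pdgfra were at least 286-, 155- and 149.7-fold higher. The summed level of the 14 thymocyte genes was 14.2 to 48.6, 24.6 to 35.6 and 2.80 to 6.35 CPM in the same order of groups. There 2 of 12 tested were higher in thymic than in SI tuft cells and 1 was lower, Cd3e was the lower gene (1.66 against 11.7 CPM), Themis (6.02 CPM) and Cd4 (5.75 CPM) had the highest CPM in thymic tuft cells, and Ptcra had 0 counts. The gate took CD45- cells, a selection against leukocytes, and the purity of the sort was not tested. Of 4 tested parathyroid and neuroendocrine genes 2 were higher and 1 lower. Chgb (49.5 ± 38.6 CPM) and Casr (41.6 CPM) had the highest CPM of them in thymic tuft cells. Calca was higher (18.7 CPM, against 1 count in SI tuft cells), and Pth averaged 0.330 CPM. Chgb ran from 2.64 to 84.5 CPM over the thymic libraries and averaged 4317 CPM in SI epithelium. A share of SI epithelium counts was estimated for thymic libraries 1 to 3 from 6 genes, as given at the end. Its part in the Chgb level was not tested. The part of fibroblasts, endothelium, thymocytes, parathyroid and neuroendocrine cells in the levels of the 6 factors was not tested. The 7 patterning factors together summed to 719 to 861 CPM in thymic tuft libraries, 0.264 to 1.28 CPM in SI tuft libraries and 4.10 to 6.01 CPM in SI epithelium libraries.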

How the data were processed

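Gene counts of 10 libraries were deposited by the authors; per the submitters' processing notes STAR, DESeq2 and GRCm38 were used, with versions not given in the sources used here. Per the labels' protocols, poly(A) RNA was amplified (NuGEN Ovation V2) and tagmented (Nextera XT), and replicates are separate mice. From those counts, symbols and exon lengths were matched through GENCODE M21 (42548 of 43432 identifiers). Genes were kept by filterByExpr (minimum count 10, total 15), scaled by TMM and tested with edgeR's quasi-likelihood test over all 10 libraries, with Benjamini-Hochberg adjustment over 19281 genes in each of 3 comparisons and a threshold of 0.05. The tools were edgeR 4.0.16, DESeq2 1.42.0 and limma 3.58.1 under R 4.3.3. The fits were tested on simulated data. The precision of low values was set by depth, 38659882 to 73574745 counts per library.

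The 7 genes and all lists were chosen with earlier results of these data known. Named were, besides the 7 genes, up to 3 called list members each way with at least 1 CPM, family genes with at least 1 CPM, the 2 members of each list of other cells with the highest thymic CPM and defining markers at 0, and the 3 nearest patterns per factor. Wnt4, Gata3, Prss16, Cd83, Dll4, Zfp750, Col17a1, Itga3, Aire, Fezf2, Ccl21a, Pth, Nog and Fgf8 were named after their values were seen, as was the band of fold changes against SI epithelium. The partner share was fitted over 273 genes with at least 2000 counts in thymic tuft cells and at most 2 in SI tuft cells, without listed genes. Fitted counts sum all 4 thymic shares and were subtracted from SI epithelium as an alternative. The estimated share of SI epithelium counts in thymic libraries 1 to 3 was subtracted from those libraries in the same step. The alternatives tried were 2 other scalings, mitochondrial genes removed, 2 other filters, 2 other tests, a fit of 2 groups, a replicate block, removal of each library and the subtraction. Some genes are counted in the lists but are not reported here by name or drawn.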

Additional observations from a re-analysis of the deposited data

Results flagged for a closer look

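In groups of 4 libraries a value can be tested for standing apart from the other 3, which chance alone does for about 1 gene in 20. None of the 7 patterning factors stood apart in thymic tuft cells, and of 142 genes of the lists and factors examined, 11 did. Thymic library 4 stood apart for 6 of them: it was the highest for Chrd (5.00 CPM), Dach2 (6.63 CPM), Pdx1 (4.26 CPM), Cd8a (11.4 CPM) and Pecam1 (14.0 CPM) and the lowest for Fezf2 (239 CPM). Library 1 was the highest for Isl1 (30.8 CPM) and the lowest for Ltc4s (14.4 CPM). Library 3 was the highest for Foxa1 (93.2 CPM) and Cd3e (4.90 CPM). Library 2 alone held Gcm2, the parathyroid regulator, at 3.15 CPM.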

How the results depend on the processing

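Thymic tuft cells against SI tuft cells and against SI epithelium gave 6 factors called higher in the deposited counts. The same held under the 16 alternatives other than subtraction. Subtraction lowers SI epithelium counts and takes only a small share of them from thymic libraries 1 to 3, so it could not end these calls. In SI tuft cells over SI epithelium the count of factors called lower, 5 as reported, was 3 with only 2 groups fitted and 0 after either subtraction of the partner share, and the count called higher was 0 as reported and 2 after either subtraction. Leaving out any 1 SI tuft or SI epithelium library gave 4 factors lower and 0 higher. After subtraction over all 273 genes the log2 fold changes of SI tuft over SI epithelium turned to 2.14 (Foxn1), 2.15 (Pax1), 4.99 (Pax9), 7.28 (Eya1) and 5.69 (Trp63). With outlying genes removed they turned to 2.16, 2.17, 5.02, 4.24 and 1.95 for the same genes. Subtraction by construction leaves SI epithelium counts at or near 0, so these values depend on the fit's prior. The fitted share of SI epithelium library 3 was 0.495% with outlying genes removed, against 0.897% over all 273 genes.

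The Trp63 call in this comparison was lost without SI tuft replicate 3 or 4 or any SI epithelium replicate (adjusted p = 0.0630 to 0.0978, edgeR) and with the DESeq2 Wald test (0.0526); the cause was not tested. The Six4 call was lost without SI tuft replicate 2 (adjusted p = 0.0587, edgeR). The replicate block gave 4 factors lower, with Trp63 at an adjusted p of 0.0776. Same-numbered libraries correlated at -0.0406 to 0.102, so the numbers were not taken to pair the samples. DESeq2 size factors moved the median log2 fold change of all genes to 0.36 and 0.38 for thymic tuft over SI tuft cells and over SI epithelium, against 0.12 and 0.15. A filter of 10 CPM left 3289 and 3536 genes higher in the thymic comparisons. In SI tuft over SI epithelium voom gave 3695 higher and 4111 lower, 2 groups gave 3475 and 3513, and leaving out SI epithelium replicate 1 or 2 gave 1426 or 1432 lower. Depth limits Tbx1, Foxn1 and Pax1 in SI tuft cells, where they had 7 counts or fewer.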

Other observations

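A share of partner counts was also computed in the other direction, for the pairs of libraries found by the fit above and for no other pairs. Over 6 genes abundant in SI epithelium and chosen as near 0 in thymic tuft library 4, the median ratio to the counts of the partner was taken. It was 0.914% in thymic tuft library 3, 0.948% in library 2 and 0.876% in library 1. The choice of genes fixed a value near 0 for library 4 in advance. No SI epithelium library was fitted to thymic tuft library 4 as its partner, and the 6 detected patterning factors stood at 52.2 to 250.5 CPM in it.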
